A study of Homo sapiens with 2 samples.

Results

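The 10 glycolysis genes described here encode enzymes from glucose-6-phosphate isomerase to lactate dehydrogenase, namely GPI, ALDOA, ALDOC, TPI1, GAPDH, PGK1, PGAM1, ENO1, PKM and LDHA. They were chosen by symbol from the 33538 gene rows of the deposited count table, and all 10 had UMIs in both flasks. The table comes from SH-SY5Y, an adrenergic human neuroblastoma cell line, grown untreated in 2 flasks in high glucose medium with pyruvate. Each flask (SplitA and SplitB) is known only from the hashtag antibody on its cells, and both were run together by CITE-seq, which reads mRNA and antibody tags of single cells, so the flasks share condition, line and library. A UMI is a tag that marks 1 captured mRNA molecule. Of 2879 cells, 899 of SplitA and 1195 of SplitB were assigned to 1 flask and had at least 1000 genes.

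Glycolysis splits glucose into pyruvate in the cytosol. An upper part spends ATP to make triose phosphates, and a lower part from GAPDH onwards yields NADH and ATP, after which lactate dehydrogenase can turn pyruvate into lactate and give back NAD+. Many of these genes are known targets of the hypoxia-inducible factors and of MYC, and proliferating tumour cells often keep them high in the presence of oxygen.

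The kept cells held 1801 to 27205 UMIs each, with a median of 6063 in SplitA and 6346 in SplitB. Of 10 adrenergic neuroblastoma markers, 8 reached 20 CPM (UMIs per 1000000 UMIs of the flask) over both flasks, and the list summed to 2532 CPM in SplitA and 2450 CPM in SplitB, while TH was low at 1.54 CPM in SplitA and 1.12 CPM in SplitB. The 5 fibroblast markers summed to 8.37 and 10.7 CPM with COL1A2 and DCN at 0, and all 5 leukocyte markers were at 0. A group of 174 cells (70 of SplitA and 104 of SplitB) had 15% or more of their UMIs from 13 mitochondrial genes. These cells stood apart in depth and in the UMI share of ribosomal protein genes, so the main results are given with and without them.

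Promoters of 6 genes are shown, picked by the place of these genes in the results below. No result on levels rests on the sequences. Among the members, LDHA, PGK1, ENO1 and PKM differed most in mitochondria-rich cells, GAPDH was the most abundant member, and LDHB is the paralogue of LDHA. The sequences come from RefSeq (GRCh38.p14) and are the 250 bases before a transcription start, 5′ to 3′ on the strand of the gene. Capitals mark ACGTG or GCGTG on either strand, the core of the hypoxia response element, and CACGTG, an E-box that MYC can bind, holds ACGTG on both strands.
LDHA, chr11:18394313-18394562, plus strand: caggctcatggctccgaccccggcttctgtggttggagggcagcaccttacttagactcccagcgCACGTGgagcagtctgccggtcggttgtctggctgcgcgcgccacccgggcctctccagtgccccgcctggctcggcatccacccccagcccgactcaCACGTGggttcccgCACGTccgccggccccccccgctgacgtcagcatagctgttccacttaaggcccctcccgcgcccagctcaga
PGK1, chrX:78103998-78104247, plus strand: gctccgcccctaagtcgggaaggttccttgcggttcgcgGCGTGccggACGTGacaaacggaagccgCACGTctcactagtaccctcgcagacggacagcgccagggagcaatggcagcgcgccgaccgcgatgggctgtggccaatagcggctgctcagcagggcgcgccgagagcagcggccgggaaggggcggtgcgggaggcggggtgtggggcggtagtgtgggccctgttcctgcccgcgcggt
ENO1, chr1:8878687-8878936, minus strand: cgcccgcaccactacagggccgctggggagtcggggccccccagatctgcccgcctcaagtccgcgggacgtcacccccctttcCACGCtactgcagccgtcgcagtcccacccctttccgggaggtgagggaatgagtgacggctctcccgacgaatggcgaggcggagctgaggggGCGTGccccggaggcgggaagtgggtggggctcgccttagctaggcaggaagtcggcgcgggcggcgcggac
PKM, chr15:72231191-72231440, minus strand: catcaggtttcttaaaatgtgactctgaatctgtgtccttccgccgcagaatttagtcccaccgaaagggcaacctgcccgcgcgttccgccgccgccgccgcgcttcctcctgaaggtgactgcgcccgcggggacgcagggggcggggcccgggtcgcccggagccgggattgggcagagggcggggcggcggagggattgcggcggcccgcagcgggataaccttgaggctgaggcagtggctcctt
GAPDH, chr12:6535014-6535263, plus strand: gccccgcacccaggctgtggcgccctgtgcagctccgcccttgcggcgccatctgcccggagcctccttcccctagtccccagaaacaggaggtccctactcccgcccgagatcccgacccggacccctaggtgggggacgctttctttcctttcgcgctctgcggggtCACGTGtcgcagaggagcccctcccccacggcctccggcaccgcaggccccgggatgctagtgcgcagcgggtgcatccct
LDHB, chr12:21657843-21658092, minus strand: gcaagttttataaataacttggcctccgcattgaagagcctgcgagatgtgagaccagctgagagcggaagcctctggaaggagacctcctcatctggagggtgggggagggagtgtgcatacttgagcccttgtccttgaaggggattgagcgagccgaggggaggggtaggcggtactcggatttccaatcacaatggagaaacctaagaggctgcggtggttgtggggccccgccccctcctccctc

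All 10 members matched the promoter table, with 14 windows because LDHA and TPI1 have 2 and ALDOA has 3. Motifs were sought on both strands in the whole windows, which run on to 50 bases after the start. ACGTG or GCGTG stood in 12 of the 14 windows and in 9 of the 10 genes, the exception being PGAM1, while 48.4% of all 35116 windows held it. ACGTG alone was in 9 member windows (21.4% of all windows), GCGTG in 7 (36.5%), CACGTG in 4 (7.26%), which belong to ALDOA, ALDOC, GAPDH and LDHA, and the GC box GGGCGG in 10 (15786 of the 35116 windows). In the whole window of the sequence shown, LDHA had 6 matches of the core with both strands counted. PGK1 had 4, ENO1 and GAPDH 2 each, and PKM and LDHB 1 each. Those of PKM and LDHB and 1 each of LDHA and PGK1 lie after the start and are not among the letters shown. The other window of LDHA, which is not shown, had 1 match. Among 13 windows of 11 paralogues of the same steps, 9 held ACGTG or GCGTG. A match is a run of letters in the window, and whether a factor bound there was not measured.

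GAPDH, which oxidizes glyceraldehyde-3-phosphate and yields NADH, was by far the most abundant member (ENSG00000111640, chr12:6534512-6538374). Its level was 2239 CPM in SplitA (exact Poisson 95% interval 2201 to 2278) and 2328 CPM in SplitB (2295 to 2361), rank 90 of all gene rows. It alone gave 56.3% of the UMIs of the 10 genes in SplitA and 56.95% in SplitB. Every kept cell of both flasks had at least 1 GAPDH UMI, with a median of 13 per cell in SplitA and 14 in SplitB and a highest value of 61 and 100. These and the following intervals cover counting error only. UMIs of this 3′ library count transcript ends, so the CPM of different genes are compared without division by length.

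The other triose step stood next. TPI1, which interconverts the triose phosphates (ENSG00000111669, chr12:6867119-6870948), was at 680.0 CPM in SplitA and at 678 CPM in the other flask. PKM, the pyruvate kinase of most tissues (ENSG00000067225, chr15:72199029-72231819), was at 314 CPM in both flasks, and its 2 well-known splice forms cannot be told apart in gene counts. LDHA, the main lactate dehydrogenase subunit of glycolytic tissues (ENSG00000134333, chr11:18394560-18408425), was at 216.5 CPM in SplitA (205 to 229) and 241 CPM in SplitB (230 to 252).

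PGAM1, the brain-type phosphoglycerate mutase (ENSG00000171314, chr10:97426191-97433444), was at 169 CPM in both flasks. ENO1, the ubiquitous enolase (ENSG00000074800, chr1:8861000-8879190), was at 161.5 CPM in SplitA and 156 CPM in SplitB. PGK1, the first ATP-yielding enzyme (ENSG00000102144, chrX:77910739-78129295), was at 95.85 and 98.4 CPM, and GPI, which isomerizes glucose-6-phosphate (ENSG00000105220, chr19:34359480-34402413), at 76.2 and 73.6 CPM. These 4 genes were seen in part of the cells only, PGAM1 in 61.9% of the cells of SplitA and 62.7% of SplitB, ENO1 in 56.4% and 57.9%, PGK1 in 39.8% and 42.2%, and GPI in 37.3% and 35.7%. LDHA (66.6% and 71.05%), PKM (80.1% and 82.3%) and TPI1 (95.8% and 96.1%) were also not seen in every cell.

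Both aldolases were low. ALDOC, the brain-type aldolase (ENSG00000109107, chr17:28573115-28576948), was at 19.1 CPM in SplitA and 23.8 CPM in SplitB and was seen in 11.1% and 13.4% of cells. ALDOA, the aldolase of muscle and most other tissues (ENSG00000149925, chr16:30064164-30070457), had 34 UMIs in SplitA and 43 in SplitB, which is 5.81 CPM (4.02 to 8.12) and 5.33 CPM (3.86 to 7.18). In GENCODE 44 a second gene row (ENSG00000285043) overlaps exons of ALDOA on the same strand and had 0 UMIs in all cells of the table. Cell Ranger leaves out reads that fit 2 genes, so the level of ALDOA is uncertain, and the size of any loss was not tested. PGK1 and GPI also have an overlapping row on their strand, with 182 and 0 UMIs in all cells.

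In the order of levels, each member stood above the next by 1.26-fold or more in both flasks except 1 pair. PGAM1 over ENO1 was 1.05 in SplitA (0.957 to 1.15) and 1.085 in SplitB (1.004 to 1.172), so these neighbours did not differ beyond counting error in SplitA. The annotation also lists many processed pseudogenes of the members, 65 of GAPDH and 13 of PGAM1 by name, none of which is a row of the count table, so how reads from such copies were assigned was not tested. Every cell of this culture is of 1 line, so no cell type without these genes was at hand to measure free RNA in the droplets.

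**Figure D1:**
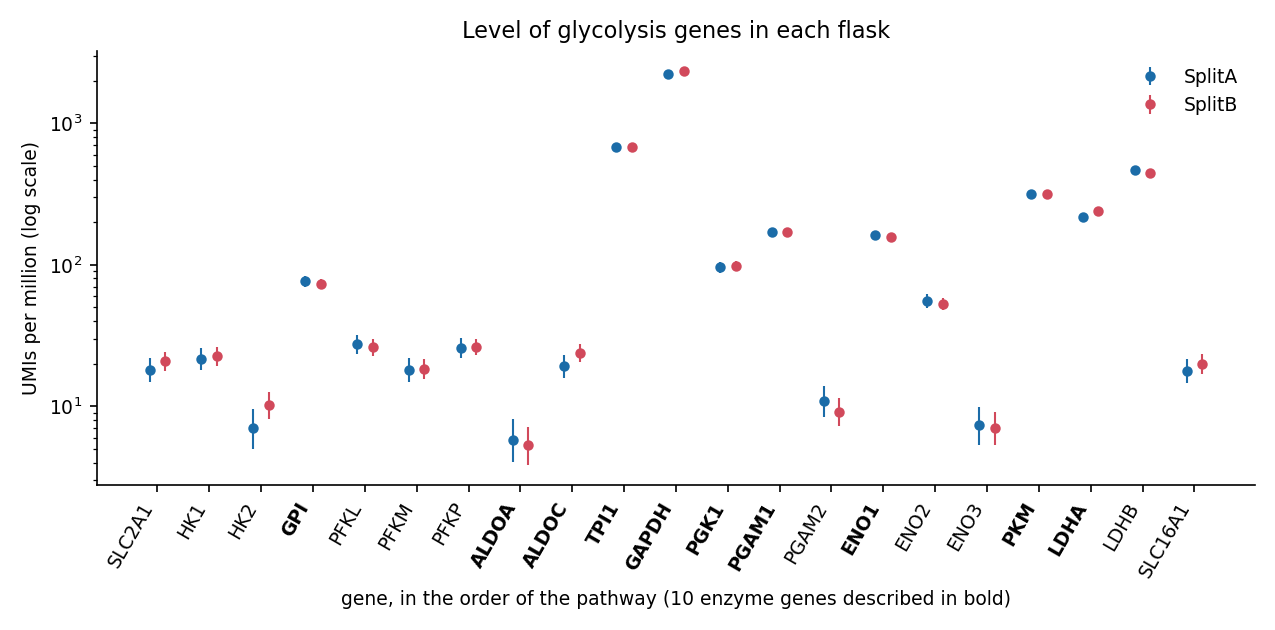
CPM of the flask (log scale) for the 10 enzyme genes in bold and for other genes of the route, in pathway order. Points are the 2 flasks and bars are exact Poisson 95% intervals, GAPDH is highest at 2239 and 2328 CPM, and ALDOA is lowest of the 10 at 5.81 and 5.33 CPM.

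The flasks were grown alike, and the members differed little between them. Of the 10, 2 differed by 1.1-fold or more. Of the 6 members at 100 CPM or more in both flasks 1 did (LDHA), as did 3.89% of all 1027 genes at that level. LDHA was 1.11-fold higher in SplitB (1.04 to 1.20) and ALDOC 1.24-fold higher (0.980 to 1.585), while the other 8 ratios lay between 0.918 for ALDOA and 1.04 for GAPDH. With 1 flask against 1 flask there is no replicate check, and no test was made. The 10 genes together took 0.398% of all UMIs in SplitA (0.393% to 0.403%) and 0.409% in SplitB (0.404% to 0.413%), or 25.9 ± 13.4 and 27.6 ± 15.3 UMIs per cell (SD over cells).

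For each step with several genes, the use of paralogues was close in the flasks. For lactate dehydrogenase alone the intervals of the flasks did not overlap, so there it differed beyond counting error. LDHB, the heart-type lactate dehydrogenase subunit, was at 466 CPM in SplitA and 449 CPM in SplitB and gave 68.3% (66.8% to 69.7%) and 65.1% (63.8% to 66.3%) of the lactate dehydrogenase UMIs. LDHB was thus 2.15-fold (2.01 to 2.30) and 1.86-fold (1.76 to 1.97) higher than LDHA. LDHC, LDHAL6A and LDHAL6B were at 0, which allows up to 0.216 CPM over both flasks (3 counts).

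Of the enolase UMIs, ENO2, the neuronal enolase, gave 24.75% in SplitA (22.4% to 27.2%) and 24.5% in SplitB (22.5% to 26.6%), ENO1 gave 72.0% and 72.25%, and the muscle enolase ENO3 3.28% and 3.27%. ALDOC gave 76.7% (69.0% to 83.3%) of the aldolase UMIs in SplitA and 81.7% (76.2% to 86.4%) in SplitB, with the reservation on ALDOA above. PGAM1 gave 93.9% and 94.9% of the mutase UMIs and PGAM2, the muscle form, 6.07% and 5.135%. For the steps of GAPDH, PGK1 and PKM the other genes were at 0 (the testis forms GAPDHS and PGK2, and PKLR of liver and red cells).

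Most genes of glucose uptake, phosphorylation and control were near or under the 20 CPM level. Of 33 other genes of transport, steps and control, 6 reached 20 CPM over both flasks (HK1, PFKL, PFKP, ENO2, LDHB and PDK2), 23 had UMIs and 10 were at 0. HK1, the main hexokinase of brain, was at 21.5 CPM in SplitA and 22.6 CPM in SplitB, and HK2 at 7.005 and 10.2 CPM. The 3 phosphofructokinase genes were near each other, PFKL at 27.3 and 26.2 CPM, PFKP at 25.8 and 26.3 CPM, and PFKM at 18.1 and 18.5 CPM. The glucose transporter SLC2A1 was at 18.1 and 20.8 CPM while the neuronal transporter SLC2A3 was at 0, and the lactate exporter SLC16A1 was at 17.8 and 19.96 CPM with SLC16A3 at 1.54 and 1.74 CPM. PDK2, a kinase that inhibits pyruvate dehydrogenase, was at 28.4 and 30.1 CPM.

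Beyond counting error the members varied from cell to cell. The variance of UMIs above that of Poisson counts was expressed as an excess coefficient of variation (CV), and for the 10 genes summed it was 0.424 in SplitA and 0.429 in SplitB, against a median of 0.329 for single genes at 100 CPM or more in either flask. In cells under 15% mitochondrial UMIs the summed genes had 0.388 and 0.4235, against medians of 0.316 and 0.319. At 5% to 15% the sum had 0.381 and 0.373. Over all kept cells, GAPDH had the lowest excess CV of the 6 members at 100 CPM or more in both flasks, with 0.382 in SplitA and 0.423 in SplitB. LDHA had 0.727 and 0.872, ENO1 0.884 and 0.690, PKM 0.643 and 0.677, TPI1 0.606 and 0.620, and PGAM1 0.478 and 0.428. PGK1 had 1.04 and 0.818, and GPI gave 0.218 and 0.680, which differ widely between the flasks.

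The members' levels went together across the cells of a flask. A noise-corrected r was computed for each of the 45 member pairs from the covariance and variances above counting noise. It is not bounded by 1 where the excess variance is small, and it exceeded 1 in 3 pairs in each flask, while GPI with ALDOA was at -2.25 in SplitA and 1.39 in SplitB. All these pairs hold GPI or ALDOA. Over the 899 cells of SplitA the 45 pairs had a median of 0.594, and over the 1195 of SplitB one of 0.515. In all, 37 of 45 pairs had r of 0.3 or more in both flasks. The 8 pairs below that all held ALDOA or ALDOC.

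The 6 members at 100 CPM or more (TPI1, GAPDH, PGAM1, ENO1, PKM and LDHA) form 15 pairs, and all 15 had r of 0.3 or more in both flasks, against 14.9% of 484620 pairs among the genes at that level. Their median was 0.675 in SplitA and 0.577 in SplitB, beside 0.0351 and 0.0467 over all such gene pairs. The pairs are not independent, since cells share 1 library and the UMI total of a cell enters both genes, and no test was made.

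As examples, PGK1 and PKM, the enzymes of both ATP-yielding steps, had r of 0.832 in SplitA and 0.873 in SplitB. PGAM1 and LDHA had 0.810 and 0.805, TPI1 and PGAM1 0.738 and 0.789, PGK1 and ENO1 0.797 and 0.763, and PKM and LDHA 0.849 and 0.688. GAPDH and TPI1 had 0.675 and 0.601. GAPDH had lower r with PKM, at 0.579 and 0.393, and ALDOC had low r with PGK1 (0.173 and 0.132) and PKM (0.220 and 0.177) but 0.581 and 0.476 with GAPDH and 0.550 and 0.460 with TPI1.

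**Figure D2:**
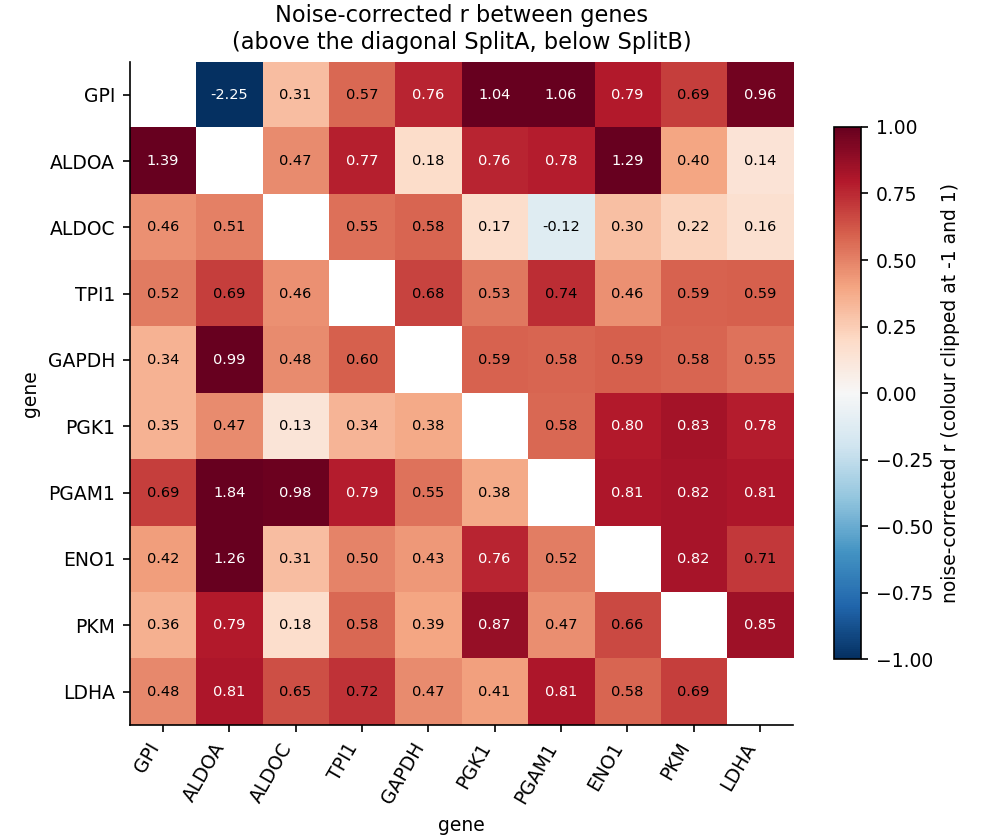
Noise-corrected r for each pair of the 10 genes, with SplitA above and SplitB below the diagonal and the colour clipped at -1 and 1. Pairs among TPI1, GAPDH, PGAM1, ENO1, PKM and LDHA lie between 0.393 and 0.849, and the values beyond 1 in size belong to GPI or ALDOA.

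The relation was about as large without the mitochondria-rich cells. Among cells under 15% mitochondrial UMIs, the 15 pairs had medians of 0.654 and 0.578 and all 15 were at 0.3 or more in both flasks. With the cells under 5% also left out (5% to 15%), the medians were 0.641 and 0.506 and 14 of 15 pairs were at 0.3 or more, GAPDH with PKM in SplitB being at 0.299. Over all 45 pairs, 34 and 28 pairs were then at 0.3 or more in both flasks, again with no share of all gene pairs at such levels. With mitochondrial and ribosomal protein genes left out of the totals, the 15 pairs had medians of 0.633 and 0.524. On log-normalized counts, where counting noise is not removed, the median over the 45 pairs was only 0.107.

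Each member also had a positive r with the sum of the other 9, from 0.506 for ALDOC to 0.885 for GPI in SplitA. In SplitB it ran from 0.506 for GPI to 0.761 for PGAM1, leaving aside ALDOA, whose 1.14 exceeds 1. LDHA had 0.731 in SplitA and 0.697 in SplitB and PKM 0.754 and 0.603. In cells under 15% mitochondrial UMIs r ran from 0.310 for ALDOA to 0.758 for GPI in SplitA. There in SplitB it ran from 0.5045 for GPI to 0.783 for PGAM1, again leaving aside ALDOA at 1.02.

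Of 979 other genes at 100 CPM or more with excess variance in both flasks, 16.3% had r of 0.3 or more with the summed members in both flasks, and 6.33% had -0.3 or less. The 10 with the highest r held 3 subunits of the proteasome, PSMA2 (0.940 in SplitA and 0.759 in SplitB), PSMB1 (0.757 and 0.782) and PSMD8 (0.752 and 0.791). They held 3 nuclear genes of oxidative phosphorylation, NDUFV2 (0.968 and 0.757), ATP5PO (0.758 and 0.751) and ATP5F1B (0.705 and 0.708). The other 4 were AUP1 (0.802 and 2.35), COPE of the COPI coat (0.799 and 0.710), the peroxiredoxin PRDX6 (1.08 and 0.709) and DHPS, deoxyhypusine synthase (0.699 and 0.917). The value of AUP1 in SplitB comes from an excess CV of 0.0593 and carries little weight. All 10 were at 0.3 or more without GAPDH in the sum and also in cells under 15% mitochondrial UMIs. They were picked for high r in largely the same cells, so this is no separate check. Of the 10, 7 stayed among the 10 highest without GAPDH and 8 in cells under 15%.

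At the other end, the 5 lowest were COPS9 (-1.02 in SplitA and -0.575 in SplitB), TMA7 (-0.554 and -0.533), the ribosomal protein genes RPS29 (-0.605 and -0.523) and RPL41 (-0.611 and -0.506), and NDUFAF8 (-0.504 and -0.635). Their canonical transcripts were short, 295 to 676 bases, against 756 to 1759 bases for the 10 highest. Over 100 genes with transcripts under 600 bases the median r was -0.129 in SplitA and -0.105 in SplitB, over genes of 600 to 2000 bases 0.0951 and 0.0593, and over 364 longer genes 0.0205 and -0.0237. Across the 979 genes the rank correlation of r with length was 0.0607 and 0.0184, so no steady trend with length was seen. The part of transcript length in these values was not tested.

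Among gene lists, the hypoxia list of 29 genes summed had r with the summed members of 0.496 in SplitA and 0.646 in SplitB. Its 2 genes at 100 CPM or more were BNIP3, a mitophagy receptor induced in hypoxia (0.578 and 0.596), and MIF (0.267 and 0.276). HIF1A, a factor that is mainly controlled at the protein level, had -0.137 and -0.126, and EPAS1 had -0.00017 and 0.0138. For 58 tested nuclear genes of oxidative phosphorylation, 20 had r of 0.3 or more in both flasks and 2 had -0.3 or less, with a median of 0.170, and the list summed had 0.194 and 0.108.

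Genes that take pyruvate and reducing equivalents into mitochondria, 13 in all, had a summed r of 0.762 in SplitA and 0.664 in SplitB. Its 2 genes at 100 CPM or more differed, with MDH2, the mitochondrial malate dehydrogenase, at 0.696 and 0.744 and the pyruvate carrier subunit MPC2 at -0.412 and -0.0429. The value of MPC2 in SplitA rests on an excess CV of 0.0734, and without GAPDH in the sum its r was 0.0879 and 0.00705, so its sign is not settled. The 7 pentose phosphate genes summed had 0.603 and 0.572, and their 1 gene at 100 CPM or more, PGLS, 0.214 and 0.308. The 5 serine synthesis genes summed had 0.332 and 0.182, and none reached 100 CPM. Of 81 ribosomal protein genes tested, 0 had r of 0.3 or more in both flasks and 17 had -0.3 or less, with a median of -0.236. Such genes also make up part of each cell's UMI total. The 87 summed had -0.402 and -0.259, and -0.235 and -0.148 in cells under 15% mitochondrial UMIs. There the summed r was 0.610 and 0.709 for hypoxia, 0.289 and 0.174 for oxidative phosphorylation, and 0.695 and 0.625 for pyruvate entry. It was 0.561 and 0.492 for the pentose phosphate genes and 0.0723 and 0.0495 for serine synthesis. Over all kept cells LDHB had r of 0.627 and 0.406 with the summed members, and ENO2 1.08 and 0.373. In cells under 15% mitochondrial UMIs LDHB had 0.467 and 0.312 and ENO2 0.741 and 0.346.

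The share of a cell's UMIs that fell on the 10 genes had a median of 0.370% in SplitA and 0.387% in SplitB, with 5th to 95th percentiles of 0.196% to 1.03% and 0.209% to 0.887% and highest cells at 2.47% and 2.41%. The share was lower in deeper cells, with a rank correlation with the UMI total of -0.4345 (899 cells) and -0.415 (1195 cells), the total being also the divisor of the share. Among cells at 5% to 15% mitochondrial UMIs, the 164 and 214 shallowest cells had 0.449% in SplitA and 0.459% in SplitB and the 163 and 213 deepest 0.326% and 0.334%. The UMIs of the members per cell were higher in deeper cells, 18.0 ± 7.93 against 35.5 ± 17.6 in SplitA and 18.7 ± 7.40 against 38.0 ± 17.4 in SplitB.

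In mitochondria-rich cells the members took a larger share of the UMIs, while their UMIs per cell were higher than in other cells in SplitA and lower in SplitB. Cells at 15% mitochondrial UMIs or more had 0.982% of their UMIs on the 10 genes in SplitA and 0.714% in SplitB, against 0.373% and 0.385% in cells at 5% to 15%. Their UMIs of the members per cell were 29.8 ± 12.2 in SplitA (70 cells) and 23.5 ± 9.73 in SplitB (104 cells), against 25.4 ± 13.2 (819 cells) and 27.3 ± 14.3 (1068 cells). These cells were shallow, with a median of 2704 and 2836 UMIs against 6329 and 6602. Ribosomal protein genes gave 13.3% and 14.55% of their UMIs, against 37.4% and 37.3%.

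**Figure D3:**
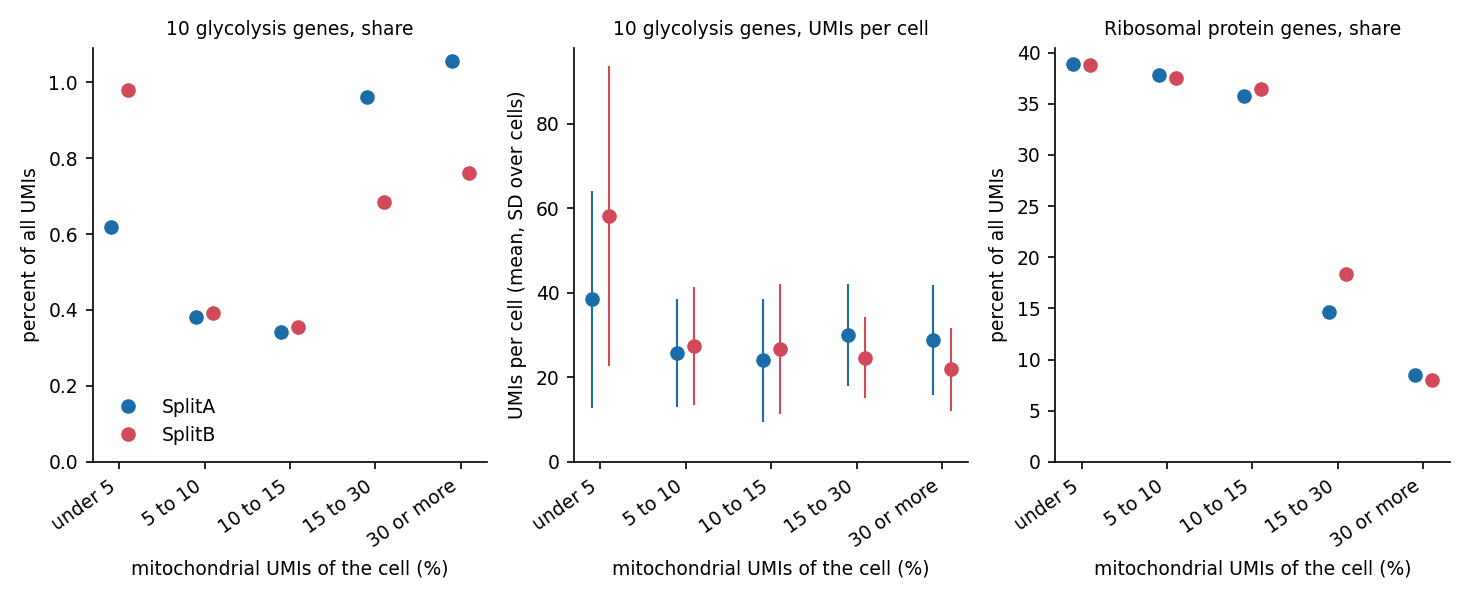
Share of the 10 genes in all UMIs, their UMIs per cell (mean and SD over cells) and the share of 87 ribosomal protein genes, by the mitochondrial share of the cell, for the 2 flasks. Cells at 15% or more hold a larger share of the members and a smaller ribosomal share, while the members' UMIs per cell stay between 22.0 and 30.0 in all bands from 5% on.

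The members were not alike in these cells. In CPM, PGK1 was 8.14-fold higher in mitochondria-rich cells of SplitA than in those at 5% to 15% (6.63 to 9.93) and 6.43-fold higher in SplitB (5.39 to 7.63), and its UMIs per cell were 1.86 against 0.513 and 1.65 against 0.555. ENO1 was 5.32-fold and 4.32-fold higher, PKM 5.46-fold and 3.95-fold, and LDHA 3.86-fold and 2.455-fold. In contrast, GAPDH was 2.09-fold and 1.39-fold higher in CPM, TPI1 1.86-fold and 1.44-fold, PGAM1 2.18-fold and 1.62-fold, and GPI 1.79-fold and 1.46-fold. Per cell, however, GAPDH, TPI1, PGAM1 and GPI had fewer UMIs in mitochondria-rich cells than at 5% to 15% in both flasks. GAPDH had 13.6 against 14.61 in SplitA and 10.32 against 15.97 in SplitB, and TPI1 3.67 against 4.44 and 3.05 against 4.57. PGK1, ENO1, PKM and LDHA had more per cell in both flasks, LDHA with 2.27 against 1.32 and 1.76 against 1.55.

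Of the 6 members at 100 CPM or more, 3 (ENO1, PKM and LDHA) were thus 2-fold or more higher in both flasks, where 9.35% of the 1027 genes were and the median gene had a ratio of 0.760 and 0.744. LDHB was 3.51-fold and 2.535-fold higher. For comparison, 3 genes outside the route were chosen after their values were seen. TUBA1A and HSP90AA1 were 7.21-fold and 6.93-fold, and 6.09-fold and 4.91-fold higher, and EEF1A1 was 0.761 and 0.674 of its level in the other cells. The cells were split by their mitochondrial share, so depth, ribosomal share and the members' levels moved together, and the part of each was not tested.

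**Figure D4:**
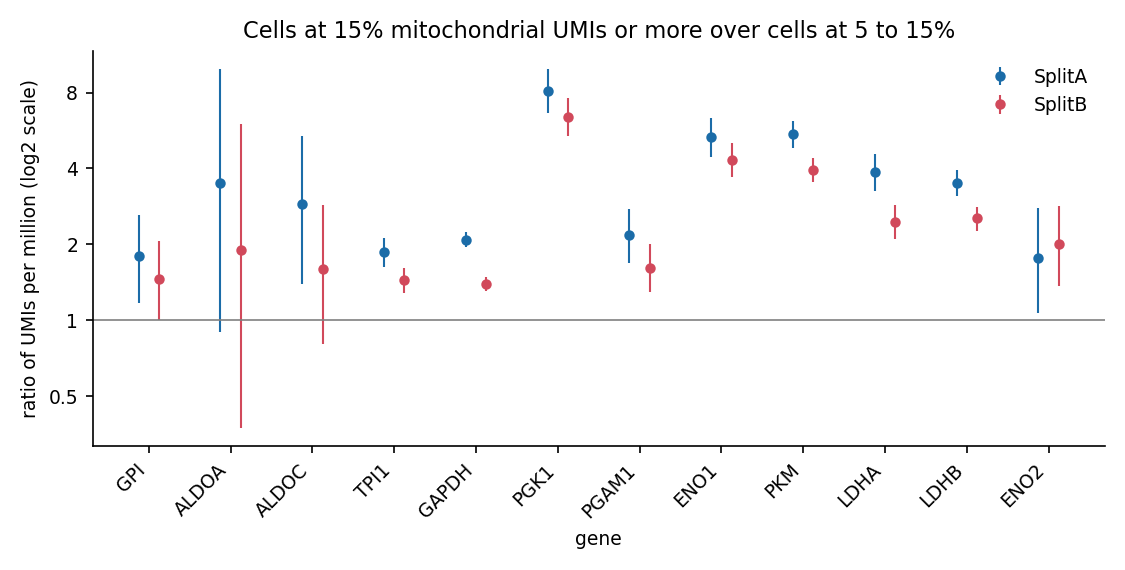
Ratio of CPM in cells at 15% mitochondrial UMIs or more to cells at 5% to 15% (log2 scale) for the 10 genes, LDHB and ENO2 in each flask, with exact 95% intervals. PGK1, ENO1, PKM and LDHA lie at 2.455 or more in both flasks, and GAPDH, TPI1, PGAM1 and GPI between 1.39 and 2.18.

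At the low end of the mitochondrial share, 10 cells of SplitA and 23 of SplitB were under 5% and held 0.618% and 0.978% of their UMIs on the 10 genes. Here depth and ribosomal share were like those of other cells, with median totals of 5948 and 6251 UMIs and ribosomal shares of 38.9% and 38.8%, and the members' UMIs per cell were 38.5 ± 25.7 and 58.3 ± 35.5. LDHA was 2.07-fold higher than in cells at 5% to 15% in SplitA (1.33 to 3.07) and 3.59-fold in SplitB (2.92 to 4.36), while LDHB was at 1.02 (0.668 to 1.48) and 1.06 (0.807 to 1.36) of its level there. TPI1 was 2.22-fold and 3.12-fold higher, PKM 1.74-fold and 3.56-fold, GAPDH 1.40-fold and 2.11-fold, and BNIP3 2.03-fold and 3.66-fold. PGK1 was 2.35-fold and 2.71-fold higher and PGAM1 2.31-fold and 2.02-fold. The other members were not higher beyond counting error in SplitA, with GPI (0.610 to 3.17), ENO1 (0.713 to 2.43), ALDOC (0.0225 to 5.11) and ALDOA (0 UMIs). In SplitB these same genes were higher beyond counting error, ALDOA on 5 UMIs. MIF, the other gene of the hypoxia list at 100 CPM or more, was 1.39-fold higher in SplitA (1.077 to 1.77). In SplitB the ratio of MIF was 1.104 (0.916 to 1.32). No share of all genes is given for the cells under 5%. These cells are few, and 6 of 10 and 18 of 23 were scored as G1.

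Cycle phases were assigned to each cell from the S and G2M gene lists of Seurat. G1 held 369 cells of SplitA and 505 of SplitB, S held 276 and 348, and G2M held 254 and 342. The 10 genes together took 0.432% of UMIs in G1, 0.414% in S and 0.340% in G2M in SplitA, and 0.454%, 0.395% and 0.359% in SplitB. In both flasks the share was thus highest in G1 and lowest in G2M. GAPDH gave 56.3% and 56.95% of these UMIs, so the sum mainly follows GAPDH. Taken singly, 6 members were above and 4 below their G1 level in S in both flasks. In SplitB, however, the intervals of these 6 included 1 except that of PKM (1.103 to 1.33). In cells under 15% mitochondrial UMIs the counts above and below were 1 and 5. No share of all genes is given for these counts, so they are not read as particular to the members. The ribosomal share was 38.5%, 35.6% and 34.8% in SplitA and 38.2%, 35.5% and 34.7% in SplitB, and the median total 5830, 5792 and 7078 UMIs and 6130, 6090 and 6969 UMIs. Per cell the members had 27.2, 25.05 and 24.9 UMIs in SplitA and 30.4, 25.45 and 25.7 in SplitB.

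GAPDH was at 2576 CPM in G1, 2204 CPM in S and 1850 CPM in G2M in SplitA and at 2737, 2125 and 1951 CPM in SplitB. Its G2M to G1 ratio was 0.718 (0.689 to 0.749) and 0.713 (0.688 to 0.738), and 0.8345 and 0.7635 when taken per cell and not in CPM. TPI1 had 0.775 (0.718 to 0.837) and 0.805 (0.754 to 0.859), and ALDOC 0.430 (0.252 to 0.707) and 0.587 (0.406 to 0.836) on 22 and 46 UMIs in G2M. Over all kept cells these 3 members, and no other, were 1.1-fold or more lower in G2M in both flasks, and of the 6 members at 100 CPM or more these are 2, beside 28.3% of the 1027 genes at that level. No member was 1.1-fold or more higher in both flasks, beside likewise 28.3% of those genes. The remaining members had CPM ratios from 0.815 for ENO1 to 1.05 for LDHA in SplitA and from 0.564 for ALDOA to 1.04 for ENO1 in SplitB. Taken per cell, GPI, PGK1, PGAM1, PKM and LDHA were above their G1 level in G2M in both flasks, LDHA at 1.22 and 1.075. TPI1 (0.901 and 0.862) and ALDOC (0.499 and 0.629) were below it like GAPDH, and ALDOA and ENO1 differed in direction between the flasks. G2M cells were also deeper. A ratio taken per cell is the CPM ratio multiplied by the ratio of mean UMI totals, so it carries this difference in depth. In CPM, LDHA was at 1.05 and 1.004. The part of depth in the CPM ratios was not tested.

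In S, GAPDH (0.856 and 0.776), ALDOC (0.565 and 0.529) and ALDOA (0.895 and 0.820, on 9 and 12 UMIs in S) were 1.1-fold or more lower than in G1 in both flasks, which is 1 of the 6 members at 100 CPM or more, beside 17.5% of all genes at that level. PKM was 1.34-fold higher in SplitA (1.20 to 1.49) and 1.21-fold in SplitB (1.103 to 1.33), and PGK1 1.31-fold (1.07 to 1.59) and 1.17-fold (0.989 to 1.39), and 1 of the 6 members at 100 CPM or more (PKM) was thus 1.1-fold or more higher in both flasks, beside 25.5% of all genes at that level. Of the mitochondria-rich cells, 39 of 70 in SplitA and 48 of 104 in SplitB were scored as S. Without them, with phases as scored over all kept cells, PKM was at 1.115 and 1.06 of its G1 level and PGK1 at 0.979 and 0.935. There 0 members were 1.1-fold or more higher in both flasks. In the same cells 4 members were lower, TPI1 joining at 0.870 and 0.884. Of the 6 members at 100 CPM or more these were 2 (GAPDH and TPI1), and no share of all genes is given for these cells. Neither share of the 6 members exceeded that of all genes in all kept cells.

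Without the mitochondria-rich cells 5 members were 1.1-fold or more lower in G2M in both flasks, with phases as scored over all kept cells. PGK1 joined at 0.834 and 0.9085 and ALDOA at 0.9035 and 0.635. With phases scored anew in the remaining cells the count was 4. PGK1 in SplitB lay close to the limit, and ALDOA rested on few UMIs. Of the 6 members at 100 CPM or more 2 were lower (GAPDH and TPI1), as over all kept cells. No share of all genes is given for the cells under 15%. The ratios of G2M to G1 were then 0.700 and 0.701 for GAPDH, 0.758 and 0.799 for TPI1 and 0.428 and 0.537 for ALDOC. Among the paralogues, ENO2 had G2M to G1 ratios of 0.960 (0.731 to 1.26) and 1.24 (0.973 to 1.58), while LDHB had 0.777 (0.706 to 0.855) and 0.9005 (0.830 to 0.976). Phase scores are read from the same counts, and free RNA could enter them, which was not tested.

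**Figure D5:**
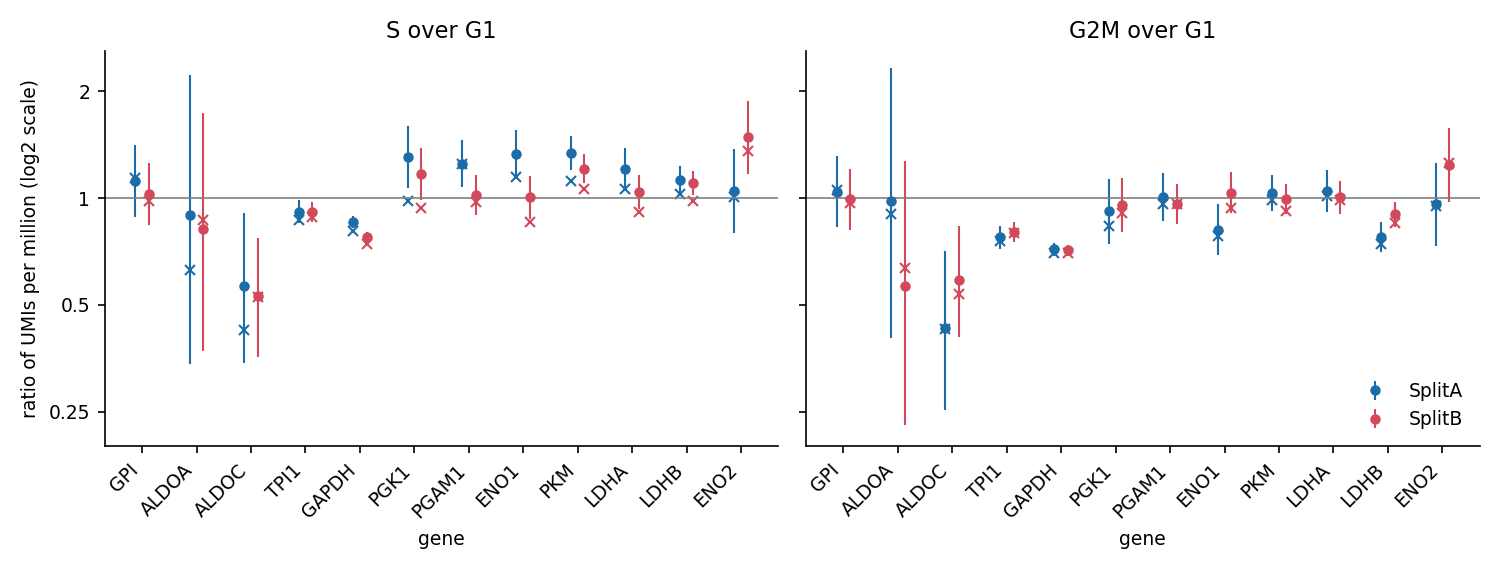
Ratio of CPM in S and in G2M to that in G1 (log2 scale) for the 10 genes, LDHB and ENO2 in each flask. Points with exact 95% intervals are all kept cells and crosses are cells under 15% mitochondrial UMIs, GAPDH, TPI1 and ALDOC lie below 1 in G2M in both flasks, and the crosses of PGK1 and PKM in S lie lower than their points.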

How the data were processed

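The authors mapped the reads to GRCh38 with STAR 2.7, counted UMIs with Cell Ranger 4.0.0 (submitters' processing notes) and deposited raw UMI counts, without normalization, for 33538 Ensembl rows and 2 hashtags in 2879 cells of 1 library. The annotation version is not given in the sources used here. A cell belonged to SplitA or SplitB where its hashtag had at least 3 times the count of the other and the other at most 185, and 95 multiplets were left out. The flask names follow the code of the study, since the labels describe both hashtags alike. The 690 singlets under 1000 genes were also left out. Counts were summed per flask and scaled to CPM. No test was made, since a flask is 1 sample and its cells do not replicate it.

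The noise-corrected r divides the covariance of UMIs around the expectation from cell totals, less the multinomial counting term, by the excess standard deviations. It was tested on simulated data only for genes at 100 CPM or more, all with the same excess CV. Members below that level and genes with smaller excess CV were not covered. Phases came from Seurat 5.3.0 in R 4.3.3, other values from Python 3.11.15, numpy 2.4.6, scipy 1.17.1 and pandas 2.3.3. Genes were named as all 10 members, route genes at 20 CPM or more and by counts, the 10 highest and 5 lowest in r with the summed members, and up to 3 genes per list at 100 CPM or more. Outside this rule, HIF1A, EPAS1, TUBA1A, HSP90AA1, EEF1A1, the marker TH and route genes under 20 CPM were named after their values were seen. The members, lists and rules were chosen with earlier results of these data known. Alternatives concerned hashtag limits, filters, totals, thinning to 2000 UMIs, correlation measures, cycle lists and leaving out each flask. Values of some genes are not reported here.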

Additional observations from a re-analysis of the deposited data

How the results depend on the processing

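The share of UMIs on the 10 genes, 0.404% over both flasks, was 0.430% with at least 300 genes per cell, 0.360% with at least 2000, 0.387% under 15% mitochondrial UMIs, 0.413% without the 5% deepest cells, 0.438% thinned to 2000 UMIs, and 0.446% and 0.745% with mitochondrial, or mitochondrial and ribosomal protein, genes left out of the total. In settings added after seeing the data it was 0.380% (5% to 15% mitochondrial) and 0.384% (at least 4000 UMIs). The ENO2 share of enolase UMIs, 24.6%, was 24.4% with the hashtag limit of 100, 22.8% and 27.6% with at least 300 and 2000 genes, 26.5% under 15% and at 5% to 15% mitochondrial UMIs, 23.4% without the deepest cells, 22.5% thinned and 26.25% at 4000 UMIs or more. The LDHB share, 66.4%, was 63.55% with at least 2000 genes.

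The median r over the 45 pairs, 0.555, was 0.107 and 0.0817 as Pearson and Spearman coefficients of log-normalized counts, which keep the counting noise, and 0.490 with cells weighted equally, and 0.515 and 0.594 without SplitA or SplitB. The 37 pairs at 0.3 or more in both flasks became 23 thinned, 23 in G1 cells alone, and 3 by Pearson and 1 by Spearman coefficients. They were 25 with cells weighted equally, 28 at 5% to 15% mitochondrial UMIs, 29 with the hashtag ratio of 10 and 30 with at least 2000 genes. The other settings of cells and totals gave 33 to 38. With 1 flask left out the count was 37 to 43. There only 1 flask must pass the limit, so the count cannot fall and is no check.

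Where a setting changed the cells, their phases were scored anew. Members higher in G2M, 0 in all, were 1 with at least 2000 genes and 2 thinned. Members lower in G2M, 3 in all, were 4 under 15% and at 5% to 15% mitochondrial UMIs, and with at least 300 and at least 2000 genes. They were also 4 without the 5% deepest cells, thinned, with updated cycle genes and with clear phases only. The same count held with mitochondrial and ribosomal protein genes left out of the total. Members higher in S, 2 in all, were 6 with at least 300 genes, 0 under 15%, at 5% to 15% mitochondrial UMIs and with at least 4000 UMIs, 4 thinned, 4 with clear phases only and 4 with cells weighted equally. With 1 flask left out, where the count likewise cannot fall, they were 2 to 6, the 6 being without SplitB. Members lower in S, 3 in all, were 1 with at least 300 genes and 0 thinned. Members apart between flasks, 2 in all, were 1 with at least 300 genes and 4 with at least 2000. The S over G1 log2 ratio turned sign for PGK1 to -0.0906 (2000 genes), -0.0546 (under 15% mitochondrial) and -0.0215 (5% to 15%), and for ALDOA, with few UMIs, to 0.466 (2000 genes), 0.610 (thinned) and 0.0291 (clear phases). Of members that were not 1.1-fold apart in both flasks, LDHA went from 0.166 to -0.0588 (under 15%) and -0.0180 (4000 UMIs), and ENO1 from 0.211 to -0.00409 (2000 genes), -0.00296 (under 15%) and -0.0122 (4000 UMIs). The cause was not tested. No paired analysis was possible because the results come from no test. Depth limits ALDOA, ALDOC and GPI most, and 1 library limits everything to this culture.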

Other observations

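Cells that were assigned to a flask but had under 1000 genes (280 of SplitA and 410 of SplitB) held 0.850% and 0.753% of their UMIs on the 10 genes, at medians of 1460 and 1355 UMIs per cell. They had 12.6 and 10.5 UMIs of the members per cell, mitochondrial shares of 31.9% and 35.25%, and ribosomal shares of 12.1% and 11.2%. PKM was at 1375 and 1224 CPM there and GAPDH at 3786 and 3337 CPM.

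The 73 multiplets with at least 1000 genes held 0.382% of their UMIs on the 10 genes, with 30.2 UMIs of the members per cell at a median of 7636 UMIs, GAPDH at 2220 CPM and LDHA at 204 CPM.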
